A study of Mus musculus with 6 samples.

Results

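The 10 genes described here encode the growth factor IGF-1 (Igf1), the receptors of IGF-1 and of insulin (Igf1r and Insr), the docking proteins of both receptors (Irs1 and Irs2) and binding proteins that hold IGFs outside the cell (Igfbp2, Igfbp3, Igfbp4, Igfbp5 and Igfbp7). They were chosen by symbol, with earlier results of these data known. All 10 had a row among the 22432 genes of the authors' deposited table. Total RNA had been sequenced from male mouse germline stem cells, the cultured counterparts of the spermatogonia that maintain sperm production. CDH1+/THY1+ and CDH1-/THY1+ populations were compared, with 3 samples each. CDH1 is the adhesion molecule E-cadherin and THY1 a surface glycoprotein used to enrich these cells. Samples of both populations carry the same 3 culture names. RP7 (8 weeks of age) and RP5 (19 days) carried the strain label OCT4/GFP; Dox-OCT4, and WT1 (5 weeks) the label C57BL/6. All samples were taken at passage 6 to 8, after growth on DR4 feeder fibroblasts, in a medium that held insulin at 25 ug/ml, serum at 1% and GDNF at 10 ng/ml. Some fibroblasts also carry THY1, and how feeder cells were treated at the sort was not given in the sources used here.

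IGF-1, IGF-2 and insulin bind receptor tyrosine kinases of one family. The active receptors phosphorylate IRS1 and IRS2, which recruit PI3-kinase. The lipid it makes activates AKT, which keeps FOXO transcription factors out of the nucleus and stimulates growth through mTOR. Secreted IGF-binding proteins hold IGFs away from the receptors or store them in the matrix, and proteases release the ligand again. In the testis, somatic cells are a source of IGF-1, receptors of this family are required for the expansion of Sertoli cells, and FOXO1 marks undifferentiated spermatogonia and is needed for their maintenance.

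The values are those of the authors' DESeq2 comparison. The table holds 1 mean count per gene over all 6 libraries and no value per sample or population, so levels within a population, their spread and the overlap of the groups are unknown. A log2 fold change is CDH1+/THY1+ over CDH1-/THY1+, given with the standard error of the authors' test. This direction rests on the name of the table, since Cdh1 was not analysed here. The brackets after a fold give the 95% interval, 1.96 standard errors to either side. A gene was called at an adjusted p-value under 0.05. The deposited fold changes bear signs of shrinkage towards 0: no standard error exceeded 0.639, even for genes with almost no reads. Fold changes with a standard error near that size may therefore understate the change. The labels give the 3 cultures different ages but not how many animals each came from, and p-values measure the spread between these samples.

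Of the 10 genes, Igfbp2, Igf1, Igfbp7 and Irs1 were higher and Igf1r was lower in CDH1+/THY1+ cells per the authors' deposited table. These were bulk samples, in which fewer cells of a type and less RNA per cell cannot be told apart. The other 5, Igfbp4, Irs2, Igfbp3, Insr and Igfbp5, were not called. A call was common in this comparison: 33.5% of the 19211 genes with an adjusted p-value were called, 17.1% as higher and 16.4% as lower. Among genes averaging at least 100 counts, the range in which all 10 members lie, 44.3% were called, 22.6% as higher and 21.7% as lower. Stricter rules called fewer of the 19211 genes, 23.0% at an adjusted p under 0.01 and 14.0% with a change of at least 2-fold. A Benjamini-Hochberg adjustment without a filter on low counts called 27.6% of the 22330 genes with a p-value. That was 6159 genes, beside 6438 in the main rule. The members' 5 of 10 is thus near the background and is no result about the group. The median log2 fold change of the 10 was 0.59 per the authors' deposited table, beside 0.01 over all genes tested, with 8 values above 0 and 2 below. Since the members were chosen with earlier results of these data known, this contrast is a description and was not tested.

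**Figure D1:**
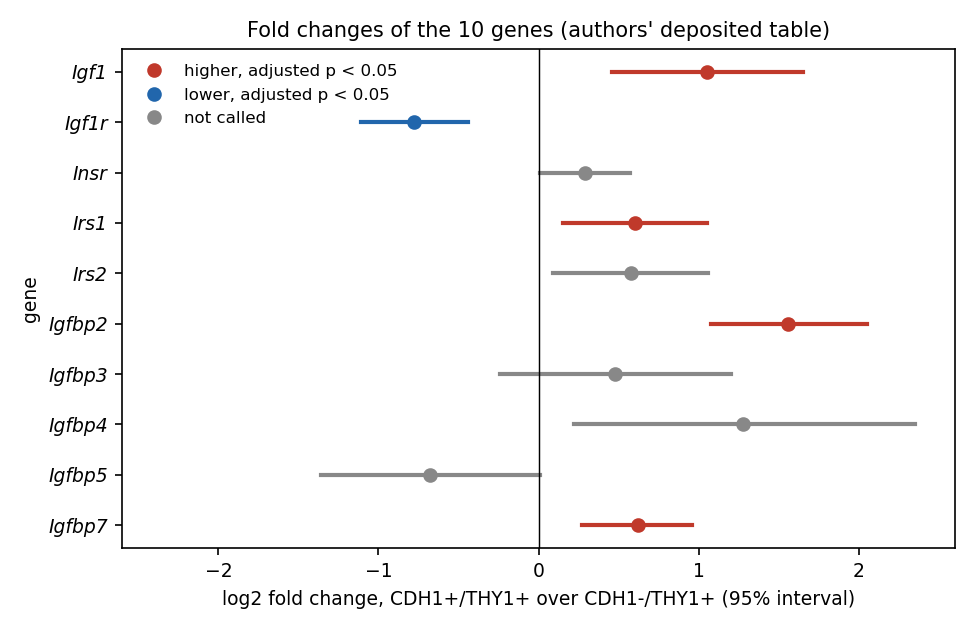
Log2 fold change of each of the 10 genes (dot) with its 95% interval (line), from the authors' deposited table, with the gene on the vertical axis. Igfbp2 lies farthest to the right at 1.56, Igf1r farthest to the left at -0.78, and the interval of Igfbp4 is the widest, from 0.22 to 2.35.

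RefSeq promoter windows were found for 9 of the 10 genes, all but Insr, in build GRCm38.p6. The 4 printed here belong to the called genes whose 250 bases before the RefSeq start cover no annotated exon. They are shown because they lead into the start sites of 3 of the higher genes and of the 1 lower gene, read 5′ to 3′. The RefSeq start of Igf1r lies upstream of its GENCODE gene start. The window of Igf1 overlaps its own annotated exons and is not printed. Capitals mark the GC box, GGGCGG on either strand.
Igfbp2 (chr1:72824230-72824479, plus strand): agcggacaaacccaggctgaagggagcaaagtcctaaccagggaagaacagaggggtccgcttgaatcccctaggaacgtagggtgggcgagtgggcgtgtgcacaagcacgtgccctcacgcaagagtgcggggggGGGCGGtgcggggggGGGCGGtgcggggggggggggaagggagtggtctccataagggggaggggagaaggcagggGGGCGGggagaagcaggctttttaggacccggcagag
Igfbp7 (chr5:77408046-77408295, minus strand): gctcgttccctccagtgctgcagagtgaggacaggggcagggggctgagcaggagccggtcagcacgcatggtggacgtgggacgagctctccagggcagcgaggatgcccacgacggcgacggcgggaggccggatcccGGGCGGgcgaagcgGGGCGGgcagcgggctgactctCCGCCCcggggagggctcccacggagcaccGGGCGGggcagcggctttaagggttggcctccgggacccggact
Irs1 (chr1:82291440-82291689, minus strand): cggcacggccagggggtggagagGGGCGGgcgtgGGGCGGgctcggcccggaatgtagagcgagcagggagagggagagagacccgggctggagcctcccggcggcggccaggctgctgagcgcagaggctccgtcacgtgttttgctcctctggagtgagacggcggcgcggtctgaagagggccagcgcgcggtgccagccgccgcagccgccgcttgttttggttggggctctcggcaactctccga
Igf1r (chr7:67952007-67952256, plus strand): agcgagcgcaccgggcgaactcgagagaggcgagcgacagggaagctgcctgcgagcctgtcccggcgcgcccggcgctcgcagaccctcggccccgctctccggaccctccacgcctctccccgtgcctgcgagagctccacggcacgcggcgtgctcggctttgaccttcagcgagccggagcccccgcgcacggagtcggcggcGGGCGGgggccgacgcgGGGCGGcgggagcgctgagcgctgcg
The GC box was found 3 times in the Igfbp2 window, 4 times in that of Igfbp7, and 2 times each in those of Irs1 and Igf1r. It is present in 33.0% of 32536 distinct RefSeq windows of this length. CpG dinucleotides numbered 42 in the Igf1r window, 28 in Irs1, 26 in Igfbp7 and 14 in Igfbp2, and the median over all windows was 6. None of the 10 windows of the 9 genes held GTAAACA on either strand, a FOXO element present in 3.17% of all windows. Igfbp4 was the 1 gene with TATAAA, present in 12.3% of windows. The 3 printed windows of higher genes and that of the lower gene all held a GC box, and the window of Igf1, also higher, held none. These matches describe letters, not binding.

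Igf1, the ligand, had the lowest mean count of the 10 and the lowest level per exon kilobase, but not per coding kilobase. Its mean count was 129.7 over all libraries, or 13.1 per exon kilobase, above 39.7% of all genes on that scale. Per the authors' deposited table, Igf1 was 2.08-fold higher in CDH1+/THY1+ cells (1.37 to 3.14), with a log2 fold change of 1.05 ± 0.30 and an adjusted p of 0.00273 by DESeq2. The gene lies on chromosome 10, 87858265 to 87937042, on the plus strand. Igf2, the other IGF ligand and an imprinted gene, averaged 1005 counts and was not called, with a fold change of 0.79 ± 0.51 and an adjusted p of 0.234 per the authors' deposited table. Its interval ran from -0.21 to 1.80, so a change in either direction lies within it. Ins1 and Ins2, the insulin genes, were not analysed here.

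The receptor genes stood apart per the authors' deposited table. Igf1r, the receptor of IGF-1 and IGF-2, was 1.71-fold lower in CDH1+/THY1+ cells, with a log2 fold change of -0.78 ± 0.17 (interval -1.11 to -0.44) and an adjusted p of 5.84e-05 by DESeq2. It was among the more abundant members, with a mean count of 3239.8 and 193 per exon kilobase. Insr, the insulin receptor gene, was not called, at 0.29 ± 0.14 (adjusted p = 0.105 per the authors' deposited table). Its mean count was 786, or 57.2 per exon kilobase. The intervals of Igf1r and Insr (0.01 to 0.57) did not overlap, but the difference between the 2 genes was not tested, since the table holds no values per library. Igf1r lies on chromosome 7, 67952827 to 68233668, and Insr on chromosome 8, 3122061 to 3279617, and the longest annotated transcript of each has 21 exons. Igf2r, an imprinted gene whose product clears IGF-2 without signalling through a kinase, had a mean count of 9295 and was not called at -0.16 ± 0.14 (adjusted p = 0.409, authors' deposited table). Insrr, the related orphan receptor gene, had a mean count of 3.22 per the authors' deposited table.

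The docking protein genes Irs1 and Irs2 had nearly the same fold change, and fell on either side of the threshold. Irs1 was 1.51-fold higher (1.11 to 2.07), with a log2 fold change of 0.60 ± 0.23 and an adjusted p of 0.0295 per the authors' deposited table. Irs2 was at 1.49-fold (1.07 to 2.08), or 0.58 ± 0.25, with an adjusted p of 0.0532 there, and was not called. When the adjustment ran only over genes averaging at least 100 counts, a rule that called 46.4% of them, Irs2 was called (adjusted p = 0.0424), and under the Benjamini-Yekutieli adjustment, which called 16.3% of all genes, Irs1 was not (0.387). The calls therefore do not separate the 2 genes. Their mean counts per the authors' deposited table were 533 for Irs1 and 609 for Irs2, or 58.3 and 96.3 per exon kilobase. Irs1 lies on chromosome 1, 82233101 to 82291416, and shares 2822 exonic bases with Gm9747 on the opposite strand. Whether counting used strand was not given in the sources used here. It is therefore unknown whether reads of overlapping genes were told apart. Irs2 lies on chromosome 8, 10984681 to 11008458. Its exons overlap those of 9530052E02Rik by 162 bases, and that gene had a mean count of 1.02.

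The 4 most abundant members per exon kilobase were binding protein genes, and the 5 binding protein genes did not share a call. Igfbp2 headed the order at 1913, above 98.4% of all genes, followed by Igfbp7 at 1356 and Igfbp4 at 522. Igfbp3 had 238, Igf1r 193, Igfbp5 169 and Irs2 96.3, and Irs1, Insr and Igf1 closed the order. Irs1 and Insr, at 58.3 and 57.2, exchanged places when the longest transcript replaced all exons. Per coding kilobase the order was Igfbp2, Igfbp4, Igfbp7, Igfbp5, Igfbp3, Igf1r, Igf1, Insr, Irs2 and Irs1. The spread of these levels over samples is unknown, so no step in the order was tested.

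**Figure D2:**
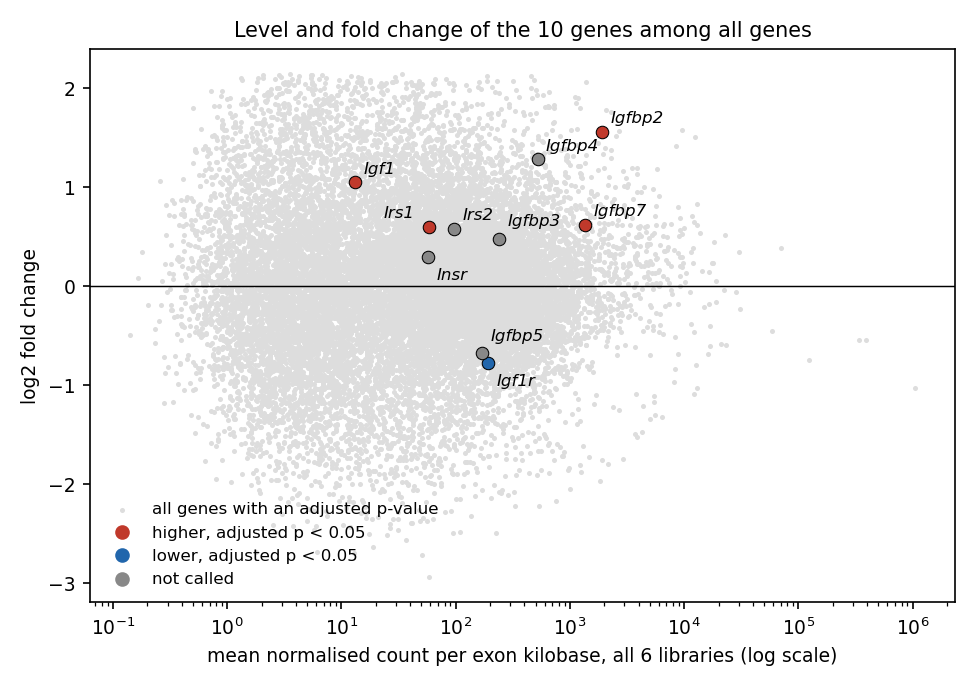
Mean normalised count per exon kilobase over all 6 libraries (horizontal, log scale) against the log2 fold change (vertical) for all genes with an adjusted p-value (grey) and the 10 members (coloured by call). Igfbp2 at 1913 and Igfbp7 at 1356 lie far to the right, and Igf1 at 13.1 lies to the left.

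Igfbp2, whose product binds both IGFs and is abundant in fetal tissues, had the largest fold change of the 10. Its mean count was 3533, and per the authors' deposited table it was 2.96-fold higher in CDH1+/THY1+ cells (2.11 to 4.15), with a log2 fold change of 1.56 ± 0.25 and an adjusted p of 7.84e-09 by DESeq2. Igfbp7, whose product binds IGFs only weakly and is deposited in the matrix, had a mean count of 1639. It was 1.53-fold higher (1.20 to 1.95; log2 0.62 ± 0.18, adjusted p = 0.00272) per the authors' deposited table. Igfbp2, Igfbp7, Igf1 and Igf1r kept their calls under the Benjamini-Yekutieli adjustment, at 1.32e-07, 0.0374, 0.0376 and 0.000846. Exons of Igfbp7 (chromosome 5, 77349240 to 77408041) and of Polr2b on the opposite strand share 85 bases. Polr2b, an RNA polymerase II subunit gene, fell to -0.87 ± 0.13 (adjusted p = 1.02e-09) per the authors' deposited table, the direction opposite to that of Igfbp7.

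Igfbp4, whose product is cleaved by the protease pappalysin, had a mean count of 2304 and was not called at a fold of 2.43. The log2 value of Igfbp4 was 1.28 ± 0.54 and its adjusted p 0.0514 per the authors' deposited table. The standard error exceeded that of all 200 genes of nearest mean count, and the interval of the fold ran from 1.16 to 5.08. Over genes averaging at least 100 counts the adjusted p was 0.041, so this call, too, turned on the set of genes adjusted over. Igfbp3, the main carrier of IGFs in blood, had a mean count of 743 and was at 0.48 ± 0.37 (interval -0.24 to 1.20, adjusted p = 0.328) per the authors' deposited table. Igfbp3 and Igfbp4 both lie on chromosome 11, at 7206086 to 7213923 and 99041244 to 99054392.

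Igfbp5, a binding protein of bone and muscle, was the 1 binding protein gene of the 10 with a value below 0. With a mean count of 1017 it was at -0.68 ± 0.35 and was not called (interval -1.36 to 0.01, adjusted p = 0.121) per the authors' deposited table. It is the neighbour of Igfbp2 on chromosome 1. Igfbp2 (72824503 to 72852474, plus strand) and Igfbp5 (72857932 to 72874884, minus strand) end towards each other, with 5457 bases and no annotated gene between them. The intervals of these neighbours, 1.08 to 2.05 and -1.36 to 0.01, did not overlap, and their difference was not tested.

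The remaining genes of the family widened this spread. Igfbp6, whose product prefers IGF-2, was 3.03-fold lower (log2 -1.60 ± 0.35, adjusted p = 4.06e-05, mean count 722) per the authors' deposited table. Igfbpl1, a related gene, fell to -1.25 ± 0.24 (adjusted p = 2.88e-06, authors' deposited table). Igfals, the acid-labile subunit that joins IGF and IGFBP3 in blood, rose to 1.69 ± 0.61 (adjusted p = 0.0199) per the authors' deposited table, at a mean count of 13.3. Igfbp1 was not analysed here. Of the 7 genes Igfbp2 to Igfbp7 and Igfbpl1, 2 were higher, 2 lower and 3 not called. The share called, 57.1% of 7 genes, stands beside 44.3% of all genes averaging at least 100 counts (22.6% higher and 21.7% lower). It is no result about these genes.

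Standard errors of 4 of the 5 binding protein members were large for their level. Against the 200 genes of nearest mean count, the standard errors of Igfbp4, Igfbp3, Igfbp5 and Igfbp2 lay at percentiles 100, 99, 97 and 95.5, and that of Igfbp7 at 65. Outside the 10, Igfbp6 lay at 97.5 and Igfbpl1 at 50.0. Irs2 lay at 91.5, Irs1 at 77, Igf1 and Igf1r at 70.5 and Insr at 14.5. Thus 5 of the 10 stood at percentile 90 or above, beside 10.2% of all genes. Igfbp4 belonged to a small set that stood apart: of 4185 genes averaging at least 1000 counts, 49 had a standard error of at least 0.5, and 1 lay between 0.45 and 0.5. The 49 made up 1.17% of the 4185. Of the 49, 44 had a fold change above 0, beside 9769 values above 0 and 9442 below over all genes tested. Of the 49, 7 were called, but they were picked for a large standard error, which itself makes a call less likely. The shares above 0 and called among all 4185 were not counted. At that mean count they held 5 of 26 fibroblast markers and 1 of 5 members. They held 0 of the 20 germ cell genes, not all of which reach that mean count. Igf2 was also among the 49. A link of these standard errors to a cell type was not tested.

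**Figure D3:**
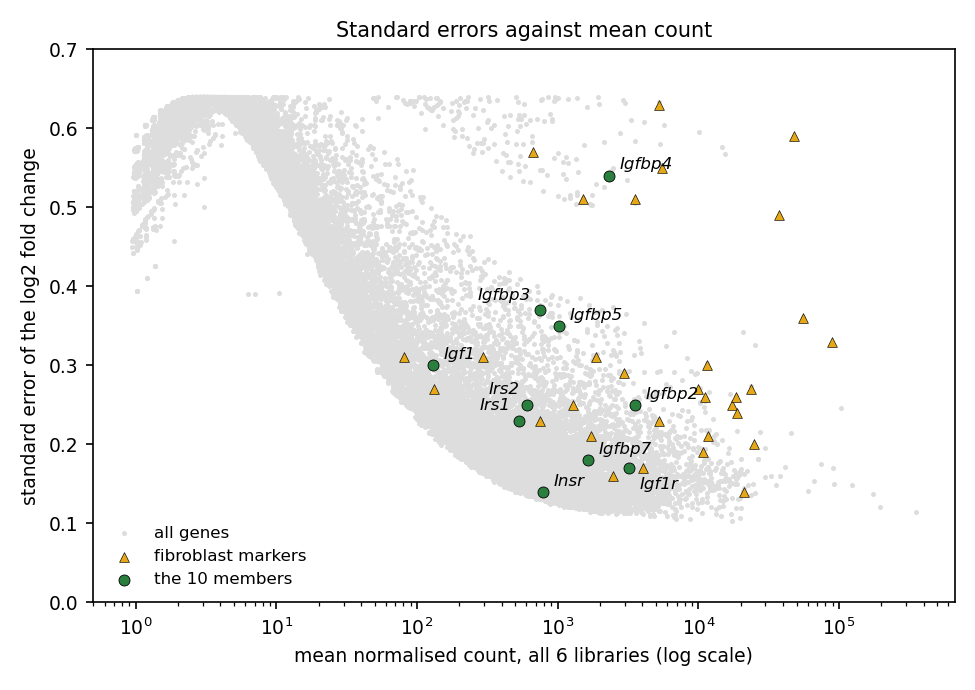
Standard error of the log2 fold change (vertical) against mean normalised count (horizontal, log scale) for all genes (grey), the 10 members (green circles) and 31 fibroblast markers (triangles). Igfbp4 at 0.54 lies in the upper band together with several fibroblast markers, and Insr at 0.14 lies near the lower edge of the cloud.

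Feeder cells were fibroblasts, and 31 markers of that type had a row: 13 were higher, 0 lower and 18 not called, beside 22.6% higher and 21.7% lower among all genes averaging at least 100 counts. They had a median log2 fold change of 0.69 and values from -0.20 to 1.49 per the authors' deposited table. Their mean counts ran from 81.4 to 89729, so none was at 0, and 20 of the 31 had a standard error at percentile 90 or above. Pdgfra, a receptor gene of mesenchymal cells, was at 1.49 ± 0.63, and Col1a2, a collagen I chain, at 1.19 ± 0.59, and neither was called per the authors' deposited table. Of 20 germ cell genes, 17 were lower and 0 higher (median -1.49, from -2.22 to 0.20). Sertoli cell markers had 2 higher and 1 lower of 9 tested (mean counts of 2.59 to 1582), and markers of Leydig cells, a source of IGF-1 in the testis, 0 higher and 1 lower of 3 tested (2.55 to 294). The Leydig markers Hsd3b1, Cyp17a1, Lhcgr and Insl3 and the Sertoli markers Fshr and Rhox5 were not analysed here. Macrophage markers had 4 higher of 5 (mean counts of 3.23 to 134) and endothelial markers 2 higher of 6 (4.39 to 306). The macrophage markers Adgre1, Csf1r and Lyz2 and the endothelial markers Pecam1 and Vwf were not analysed here. Many markers of these 4 cell types had low counts, and over all genes with an adjusted p-value 17.1% were higher and 16.4% lower. The part of these cells in the values of Igf1 and the binding proteins was not tested, and the summed level of each list in each population is unknown.

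Beyond the 10 genes, 93 of 102 listed genes of the pathway had a row per the authors' deposited table. Of these, 22 were higher, 18 lower and 53 not called, so that 43.0% were called, near the 33.5% of all genes and the 44.3% of genes averaging at least 100 counts. Their median log2 fold change was 0.09. By list, 37.5% of the proteases and their inhibitors and 66.7% of the 3 IGF2 mRNA-binding proteins were called. So were 55.0% of other adaptors and 28.6% of the brakes. In the smallest lists, 0.0% of 4 other ligands, 0.0% of 3 other receptors and 100% of 3 other binding proteins were called. The share called was 42.9% for PI3-kinase, 38.5% from PDK1 to FOXO and 50.0% for TSC and mTOR. It was 44.4% for FOXO targets. That list was not counted into the 93, though its genes Pik3ca and Rictor are among the 93 through other lists. These shares lie on either side of 44.3%, and no list was tested as a set. As background to the counts by list below, 22.6% of genes averaging at least 100 counts were higher and 21.7% lower.

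Proteases that release IGFs from binding proteins, with the inhibitors of these proteases, had 3 higher and 0 lower of 8. The median was 1.14. Htra1, a secreted serine protease, rose 3.95-fold to a log2 value of 1.98 ± 0.38 (adjusted p = 3.24e-06) per the authors' deposited table, and the related Htra3 to 1.42 ± 0.43. Stc1, a stanniocalcin gene, rose to 1.55 ± 0.54 at a mean count of 32.7 (authors' deposited table). Pappa and Pappa2, the pappalysins, were at 0.52 ± 0.39 and 0.24 ± 0.52 per the authors' deposited table and were not called. Of the 8, 5 had standard errors at percentile 90 or above. Of the RNA-binding proteins named for IGF2 mRNA, Igf2bp2 (0.90 ± 0.19, adjusted p = 1.63e-05) and Igf2bp3 (0.96 ± 0.35, adjusted p = 0.0202) were higher per the authors' deposited table. Igf2bp1, the most abundant of them at a mean count of 4502, was not called at 0.40 ± 0.26 (authors' deposited table).

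Other adaptors had 7 higher and 4 lower of 20, with a median of 0.19. Gab1, a docking protein, and Grb14, an adaptor that inhibits the insulin receptor, rose to 1.28 ± 0.28 and 1.22 ± 0.32 per the authors' deposited table. Grb10, an imprinted inhibitor of both receptors, rose to 0.64 ± 0.26 (adjusted p = 0.0417, authors' deposited table). The low-count genes Shc3 and Irs4 fell to -1.81 ± 0.52 and -1.28 ± 0.47, and averaged 18.2 and 40.8 counts per the authors' deposited table. Phosphatases and other brakes had 3 higher and 1 lower of 14 (median 0.08). Socs2, a feedback inhibitor of cytokine and growth hormone receptors, rose to 1.03 ± 0.30, and Inppl1, the lipid phosphatase SHIP2, to 0.70 ± 0.12 (adjusted p = 1.30e-07) per the authors' deposited table. Phlpp2, a phosphatase of AKT, fell to -0.91 ± 0.17 (authors' deposited table).

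**Figure D4:**
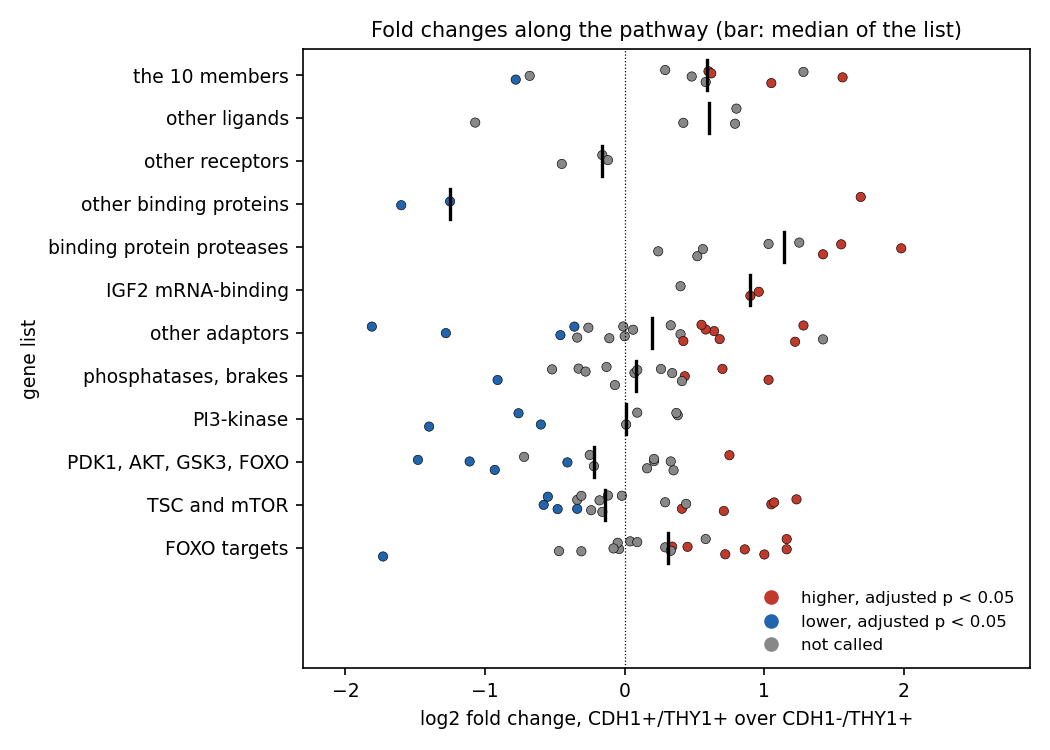
Log2 fold change (horizontal) of every gene with a row in 12 lists of the pathway (vertical), coloured by call, with a bar at the median of each list. All called PI3-kinase genes lie to the left of 0, and called genes of TSC and mTOR lie on both sides, from -0.58 to 1.23.

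Of 7 PI3-kinase subunit genes, 3 were lower and 0 higher, with a median of 0.01. Among all genes averaging at least 100 counts, 21.7% were lower and 22.6% higher. Pik3r3 and Pik3r2, regulatory subunits, fell to -1.40 ± 0.22 (adjusted p = 9.04e-09) and -0.60 ± 0.12 per the authors' deposited table, and the catalytic subunit Pik3cd to -0.76 ± 0.20. The widely expressed Pik3ca and Pik3r1 were not called, at 0.09 ± 0.15 and 0.37 ± 0.25 per the authors' deposited table. Pik3r2 was singled out after its value was seen, to complete the 3.

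Of 13 genes from PDK1 to FOXO, 4 were lower and 1 higher, with a median of -0.22. Foxo1, the FOXO factor of undifferentiated spermatogonia, fell 2.79-fold to -1.48 ± 0.23 (adjusted p = 3.62e-09) per the authors' deposited table, and Foxo6 to -1.11 ± 0.28. Foxo4 rose to 0.75 ± 0.20 (adjusted p = 0.00121), and Foxo3, with a mean count of 4364, was not called at -0.22 ± 0.23 (authors' deposited table). Of the AKT kinase genes, Akt2 fell to -0.41 ± 0.13 (adjusted p = 0.00963), and Akt1 was not called at 0.21 ± 0.15 (adjusted p = 0.283) per the authors' deposited table. Differences between paralogs were not tested.

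TSC and mTOR genes had 5 higher and 4 lower of 18, with a median of -0.14. Sgk1, a kinase activated by mTOR complex 2, and Ulk1, the autophagy kinase, rose to 1.23 ± 0.16 (adjusted p = 3.30e-12) and 1.07 ± 0.22 per the authors' deposited table. Mtor, Ddit4 and Tsc2 fell to -0.58 ± 0.20, -0.55 ± 0.19 and -0.48 ± 0.19 per the authors' deposited table, with adjusted p-values of 0.0149, 0.0156 and 0.031.

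Of 18 genes known as FOXO targets, 7 were higher, 1 lower and 10 not called, with a median of 0.31. The 18 include the members Insr and Irs2, and Pik3ca and Rictor of other lists. Among all genes averaging at least 100 counts, 22.6% were higher and 21.7% lower. At an adjusted p under 0.01, 3 of the 18 were higher and 1 lower. Cdkn1b, a cell cycle inhibitor, and Klf15, a transcription factor of metabolism, both rose to 1.16, with standard errors of 0.34 and 0.33, per the authors' deposited table. Fbxo32, the ubiquitin ligase atrogin-1, fell to -1.73 ± 0.28 (adjusted p = 2.35e-08, authors' deposited table).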

How the data were processed

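RNA was measured by strand-specific sequencing of ribosome-depleted total RNA in 6 samples, per the labels' protocols. The submitters' processing notes name the build GRCm38.p4 and the tools Trimmomatic 0.32, TopHat2 2.1.1, featureCounts, Subread 1.5.0-p3, DESeq2 1.12.3 and R 3.3.1. Use of strand in counting and the model's terms are not given in the sources used here. The mean count is the signal the authors deposited: counts divided by a size factor and averaged over all 6 libraries. Fold changes and standard errors were deposited by the authors on the log2 scale, the Wald statistic as a score, and p-values with their Benjamini-Hochberg adjustment. Depth per sample is unknown. The mean counts sum to 16900379.

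Symbols, positions and exon lengths came from GENCODE M21 (GRCm38 coordinates), by the identifier without version (22317 of 22432 rows). Levels per kilobase are the mean count over the length of all exons. The ranks behind the adjusted p-values gave 19743 tests, of which 532 were not analysed here. Counts and shares over all genes cover the rows analysed. Members and lists were chosen with earlier results of these data known. All members are named, with up to 2 of the highest and 2 of the lowest called genes of each list and a short set of core pathway genes. Pdgfra, Col1a2 and Insrr, none of them called, were named outside this rule. Some genes that this rule names are not reported here. Alternatives changed the adjustment, the low-count filter, the thresholds, the exon length and the number of neighbours. Python 3.11.15 with numpy 2.4.6 and pandas 2.3.3 was used.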

Additional observations from a re-analysis of the deposited data

How the results depend on the processing

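No paired analysis was possible because the deposited table holds no value per library, and leaving out each replicate was not run for the same reason. Of the 10 members, 3 were higher and 1 lower under the Benjamini-Yekutieli adjustment and at an adjusted p under 0.01, where Irs1 lost its call. Without a filter on low counts 4 were higher and 1 lower, and with the adjustment over genes averaging at least 100 counts, 6 and 1, since Igfbp4 and Irs2 gained a call. With a 2-fold threshold 2 remained higher, Igfbp2 and Igf1, and 0 lower, since Igfbp7, Irs1 and Igf1r changed by less than 2-fold. Of the other pathway genes, 22 higher and 18 lower became 13 and 10 under Benjamini-Yekutieli, 14 and 11 at an adjusted p under 0.01, and 10 and 7 with the 2-fold threshold. Over 22330 genes with a p-value, Benjamini-Yekutieli left 3633 called. Over the 19211 genes with an adjusted p-value, the adjusted p under 0.01 left 4420 and the 2-fold threshold 2691, against 6438. Taking fold changes relative to the median of all genes changed no direction among the called members. The number of members in the upper 10% of levels was 3 under each of the 3 lengths, and 4 in place of 5 members stood at percentile 90 of the standard error among 500 neighbours.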
